A study of Mus musculus with 6 samples.

Results

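Canonical Wnt signalling was followed through 10 genes: the co-receptors Lrp5 and Lrp6, the signal carrier Ctnnb1, the DNA-binding effectors Tcf7 and Lef1, and the target genes Axin2, Nkd2, Apcdd1, Ccnd1 and Myc. They were taken by symbol from the 54532 genes of the expression table, and all 10 were found. The libraries came from bone of female C57BL/6J mice aged 16 weeks, 3 from MIR29cb2-/- mice (knockout), which carry a deletion of the cluster for miR-29b-2 and miR-29c, and 3 from WT mice. The labels name neither the bone nor whether marrow was kept, and do not state whether every library is its own animal; each p-value therefore refers to variation among libraries, some of which may be technical. Levels are FPKM, fragments per kilobase of exon after scaling by library size, and changes are differences of log2(FPKM + 1), knockout minus WT.

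In the canonical pathway, a secreted Wnt protein binds a Frizzled receptor together with Lrp5 or Lrp6. This stops a destruction complex built on axin proteins from marking β-catenin for breakdown, and β-catenin then enters the nucleus and activates genes with TCF/LEF proteins. In bone the pathway is best known for promoting bone formation by osteoblasts, and loss of Lrp5 function lowers bone mass in humans and mice. TCF/LEF proteins also act in developing lymphocytes, and Myc drives growth of many dividing cells, so whole bone with marrow can hold transcripts of these genes from several sources.

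The deleted cluster encodes 2 of the 3 mature microRNAs of the miR-29 family, which are shown because their shared seed defines which transcripts they can pair with. The RefSeq sequences (GRCm38.p6, the same assembly as mm10) are written 5′ to 3′, with the seed, bases 2 to 8, in capitals. The first is made from the deleted cluster at chr1:195037091-195037113 on the plus strand and also from a gene on chromosome 6, the second only from the deleted cluster at chr1:195037600-195037621 on the plus strand, and the third from chr6:31062673-31062694 on the minus strand.
mmu-miR-29b-3p: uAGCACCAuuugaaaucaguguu
mmu-miR-29c-3p: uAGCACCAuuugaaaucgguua
mmu-miR-29a-3p: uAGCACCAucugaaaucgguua
All 3 share 1 seed, so the sister locus on chromosome 6 leaves that seed in the genome of the knockout.

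Of the 10 genes, 3 hold the complementary 7-letter match TGGTGCT in their longest annotated 3′ UTR, against 13.1% of the 21018 genes with such a UTR. Among the 11667 of those genes that entered the test below, the share was 15.4%. Lrp6 has 2 matches and Ctnnb1 and Apcdd1 have 1 each. Only that of Apcdd1, not shown, goes on with the A that makes an 8-letter match, which 2.85% of the 21018 genes hold. The UTRs of Apcdd1 and Lrp6 are long, at 8901 and 4310 bases, and matches were not compared at equal length. The sites of Lrp6 (chr6:134446796-134446824 and chr6:134446684-134446712, minus strand) and Ctnnb1 (chr9:120960052-120960080, plus strand) follow on the transcript strand, with the match in capitals.
Lrp6 first site: agtgaaggatcTGGTGCTgcttttgctgt
Lrp6 second site: ctttggaatgaTGGTGCTttgcaaggatg
Ctnnb1 site: aatatctgtagTGGTGCTgactttgcttg
A letter match is a description and does not show binding by miR-29. Of these 3 genes none was higher in the knockout. Apcdd1 fell, and Lrp6 and Ctnnb1 had log2 changes of -0.11 and -0.20 that did not pass the test.

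Knockout replicate 1 and WT replicate 2 stood apart. FPKM summed over all genes to 487102 in knockout replicate 1 and 489576 in WT replicate 2, and to 355787 to 404994 in the remaining 4 libraries, and levels in both fell with exon length relative to their groups. Between 16727111 and 20118034 reads per library were recovered from the steps of the FPKM values. A330023F24Rik, the noncoding transcript that hosts the cluster, stood at 2.51, 3.25 and 4.08 FPKM in knockout libraries, against 0.197, 0.153 and 0.136 in WT libraries (log2 change 1.87, limma adjusted p = 0.00676). The host was higher in every knockout library, and since the mature miRNAs were not measured, the deletion itself was not checked here.

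Of the 10 genes, the target genes Ccnd1 and Apcdd1 fell, each to under 50% of its WT mean, and no gene of the 10 rose past the threshold. The co-receptors, Ctnnb1 and Tcf7 overlapped between genotypes. Lef1, Axin2 and Nkd2 were below the filter of a mean of 1 FPKM, so 7 of 10 entered the test across all genes. Of those 7, 2 were lower at a limma adjusted p under 0.05, and 3.82% of the 13619 genes tested were lower by that rule. None was higher by that rule, against 1.34% of all genes tested higher and 5.16% called in either direction. At an unadjusted p under 0.05, 1 of the 7 was higher, against 8.91% of all genes tested. In voom, limma's test on recovered reads, 0 of 6 were higher, against 1.52% of the genes tested there. The count of 2 was 0 without WT replicate 1, WT replicate 3, knockout replicate 1 or knockout replicate 2, and 1 without WT replicate 2 or knockout replicate 3. Since the genes were picked with earlier results known, the count is not evidence that the pathway differs from other genes. In bulk tissue, fewer cells of a type and less RNA per cell cannot be told apart.

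**Figure D1:**
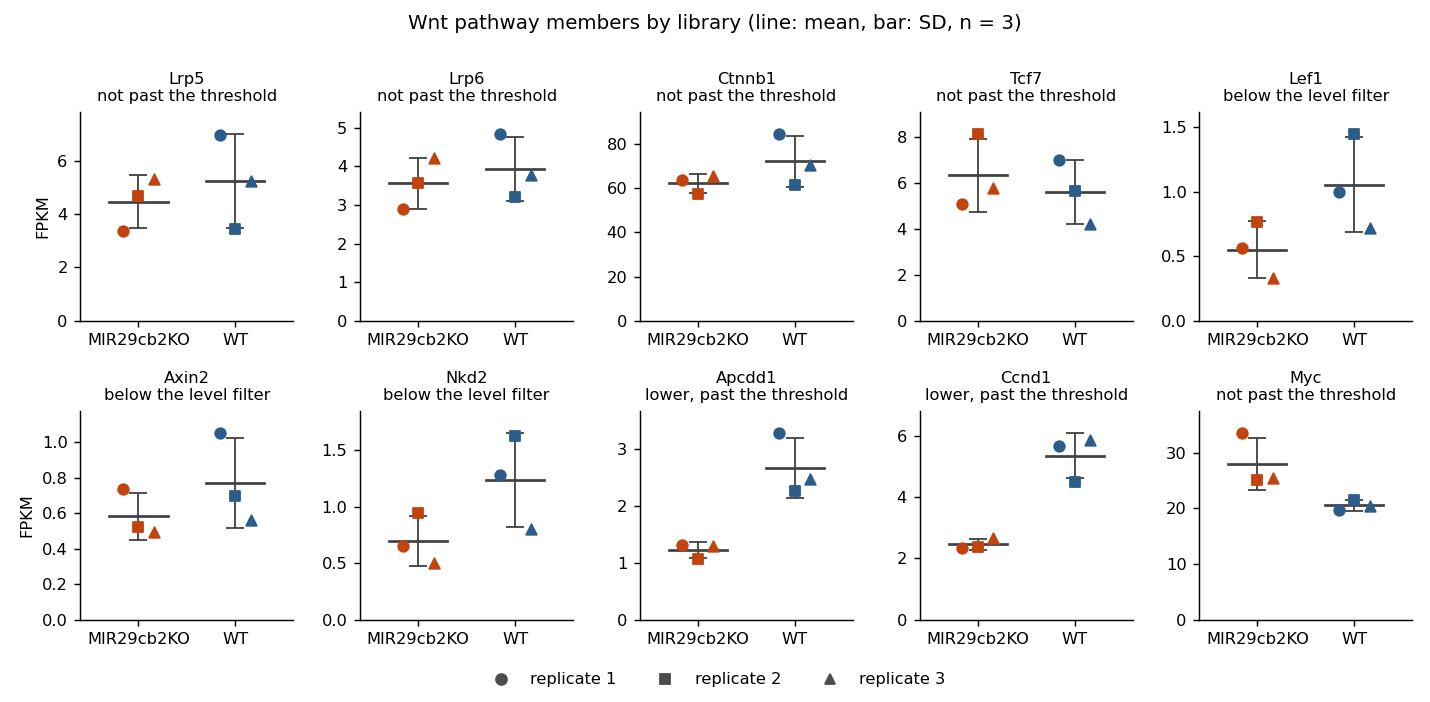
FPKM of each of the 10 genes (vertical axis, from 0) in the 3 knockout (MIR29cb2KO) and 3 WT libraries, with the group mean as a line and the SD as a bar. Ccnd1 and Apcdd1 are lower in every knockout library than in any WT library, Myc is higher in every knockout library, and the other 7 overlap.

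Per length of transcript, the 10 genes spanned about 2 orders of magnitude. Ctnnb1 was the highest, at 62.1 ± 4.14 FPKM in knockout bone and 72.1 ± 11.6 FPKM in WT bone (SD, n = 3), followed by Myc at 28.0 ± 4.74 and 20.6 ± 0.930 FPKM. In WT bone Tcf7 (5.59 ± 1.40 FPKM), Ccnd1 (5.34 ± 0.732) and Lrp5 (5.23 ± 1.76) came next and did not differ from one another beyond their spread, and Lrp6 (3.94 ± 0.823) and Apcdd1 (2.67 ± 0.533) followed. Nkd2 (1.24 ± 0.412), Lef1 (1.05 ± 0.367) and Axin2 (0.770 ± 0.251) were the lowest and overlapped. In knockout bone the order differed mainly in Ccnd1, which at 2.47 ± 0.179 FPKM stood below Lrp6 at 3.56 ± 0.656 FPKM.

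The co-receptors Lrp5 and Lrp6 pass the Wnt signal from the cell surface inward. Lrp5 (ENSMUSG00000024913, chr19:3584828-3686564, mm10) had 3.37, 4.68 and 5.32 FPKM in knockout libraries, against 6.98, 3.45 and 5.25 FPKM in WT libraries. The lowest library of each genotype was one of the pair that stood apart, and the groups overlapped. The log2 change was -0.17 with an SE of 0.24 and a 95% interval of -0.73 to 0.40 (limma adjusted p = 0.760). Lrp6 (ENSMUSG00000030201, chr6:134446476-134566965) had 2.89, 3.58 and 4.21 FPKM in knockout libraries, against 4.83, 3.21 and 3.77 FPKM in WT libraries. It showed the same order of libraries within each genotype as Lrp5. Its log2 change was -0.11 with an SE of 0.17 and an interval of -0.51 to 0.29 (limma adjusted p = 0.772). Without WT replicate 1 the log2 change was 0.03 for Lrp5 and 0.01 for Lrp6, so the sign of both rests on that library.

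Both transcripts are long, with 9738 and 13672 bases of exon, and so were exposed to the length trend of the libraries that stood apart. Their ratio within a library was steadier: Lrp5 stood at 1.16, 1.31 and 1.26 times the level of Lrp6 in knockout libraries, against 1.45, 1.08 and 1.39 times in WT libraries. The ratios overlapped. With the length trend removed the log2 changes were -0.21 for Lrp5 and -0.17 for Lrp6, and neither passed.

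Ctnnb1, which encodes β-catenin, carries the signal to the nucleus and also joins cells at adherens junctions. Ctnnb1 (ENSMUSG00000006932, chr9:120929216-120960507) had 63.5, 57.5 and 65.4 FPKM in knockout libraries, against 84.4, 61.4 and 70.4 FPKM in WT libraries, from 5196 to 9022 reads per library. WT replicate 2 lay within the knockout range and the other 2 WT libraries above it. The log2 change was -0.20 with an SE of 0.15 and a 95% interval of -0.57 to 0.16 (limma adjusted p = 0.532). The change was -0.08 without WT replicate 1, -0.31 without WT replicate 2 and -0.33 without both libraries that stood apart, and passed in none of these. At this depth counting error is small, so the width of the interval comes from differences between libraries. The RNA level says nothing of the β-catenin protein, which the pathway controls by breakdown.

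Tcf7 and Lef1 encode the DNA-binding partners of β-catenin. Tcf7, also a marker of T cells and their precursors (ENSMUSG00000000782, chr11:52252371-52283014), had 5.08, 8.09 and 5.77 FPKM in knockout libraries, against 6.97, 5.62 and 4.18 FPKM in WT libraries. The genotypes overlapped, with a log2 change of 0.15, an SE of 0.21 and a 95% interval of -0.35 to 0.65 (limma adjusted p = 0.756). The sign turned without WT replicate 3 (-0.01) or knockout replicate 2 (-0.02). The summed level of 11 T cell markers was 33.0 to 48.1 FPKM in knockout libraries and 31.4 to 51.0 FPKM in WT libraries. Of the 8 markers tested 0 passed in limma or, of 7, in voom. At an unadjusted p under 0.05, 1 of the 8, Cd4, was lower, near the 11.7% of all genes tested. The smallest p after Cd4 (log2 change -0.40) belonged to Cd5 (-0.36) and Cd8a (0.29).

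Lef1 (ENSMUSG00000027985, chr3:131110471-131224356) is active in osteoblast precursors and in early B cells. It had 0.563, 0.765 and 0.329 FPKM in knockout libraries, against 1.00, 1.45 and 0.719 FPKM in WT libraries, from 50 to 117 reads in knockout libraries and 114 to 248 in WT libraries. Only knockout replicate 2 reached into the WT range, just above WT replicate 3. The difference was -0.40 on the log2 scale (two-sided exact permutation p = 0.2, n = 3, where 0.1 is the smallest possible), and -0.83 with a pseudocount of 0.1. It was -0.27 without WT replicate 2. In a limma fit with the filter lowered to 0.1 FPKM, its SE was 0.17, its 95% interval -0.81 to 0.01 and its adjusted p 0.292, with 2.91% of 20827 genes called, 2.18% lower and 0.73% higher. Beside Lef1, the B cell precursor genes Vpreb1, Vpreb2 and Igll1 fell (log2 changes of -2.32, -1.72 and -2.06). These 3 of 12 tested markers were the ones that passed, and the list sum of 197 to 355 FPKM in knockout and 285 to 358 FPKM in WT libraries overlapped. The part of these cells in the Lef1 level was not tested.

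Within the TCF/LEF family Tcf7 was the most abundant member in every library. It made up 58.4%, 71.9% and 70.8% of the summed FPKM of Tcf7, Lef1, Tcf7l1 and Tcf7l2 in knockout libraries, against 61.6%, 50.7% and 52.1% in WT libraries. Lef1 made up 6.47%, 6.79% and 4.04% in knockout libraries, against 8.83%, 13.0% and 8.97% in WT libraries, without overlap. The sum of the 4 genes was 8.14 to 11.3 FPKM in knockout and 8.02 to 11.3 FPKM in WT libraries. Tcf7l1, often a repressor of Wnt targets, averaged 1.27 ± 0.174 FPKM in knockout and 2.01 ± 0.183 FPKM in WT bone (log2 change -0.41, limma adjusted p = 0.128). These shares are descriptions and were not tested.

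**Figure D2:**
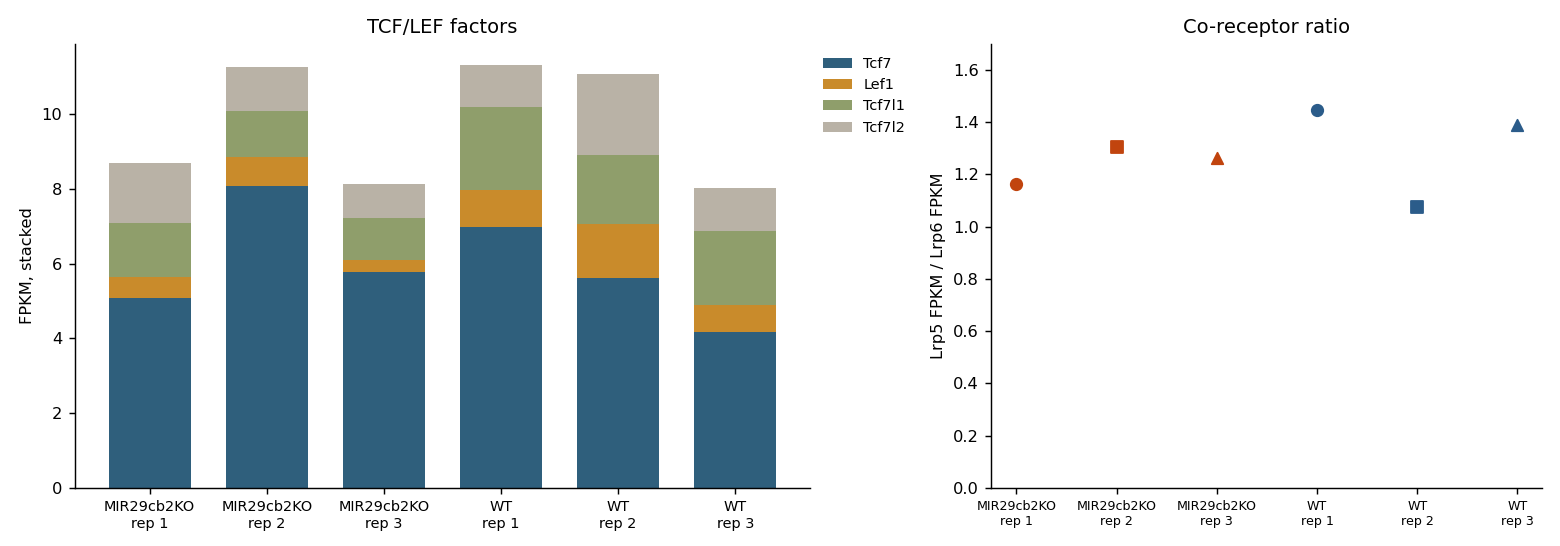
Left, stacked FPKM of the 4 TCF/LEF genes in each library (vertical axis from 0), where Tcf7 is the largest part throughout and the Lef1 part is 4.04% to 6.79% in the knockout libraries and 8.83% to 13.0% in the WT libraries. Right, the ratio of Lrp5 to Lrp6 FPKM per library (no unit), 1.16 to 1.31 in knockout and 1.08 to 1.45 in WT libraries.

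Axin2, Nkd2 and Apcdd1 are targets whose products dampen the pathway, and their RNA is often read as a sign of Wnt activity. Axin2 is a scaffold of the destruction complex (ENSMUSG00000000142, chr11:108920349-108950783). It had 0.734, 0.521 and 0.493 FPKM in knockout libraries, against 1.05, 0.698 and 0.564 FPKM in WT libraries, from 47 to 119 reads. Knockout replicate 1 lay above the 2 lower WT libraries. The log2 difference was -0.16 (exact permutation p = 0.3, n = 3), and the fit with the lowered filter gave a 95% interval of -0.48 to 0.17. These differences are on the log2(FPKM + 1) scale, which shrinks those of a gene under 1 FPKM: with a pseudocount of 0.1 the Axin2 difference was -0.33. It was -0.04 without WT replicate 1 and -0.24 without WT replicate 3.

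Nkd2, an inhibitor that binds Dishevelled (ENSMUSG00000021567, chr13:73818534-73847631), had 0.650, 0.940 and 0.503 FPKM in knockout libraries, against 1.28, 1.62 and 0.804 FPKM in WT libraries. The groups overlapped through knockout replicate 2 and WT replicate 3, as they did for Lef1. The log2 difference was -0.39 (exact permutation p = 0.2, n = 3), with an interval of -0.81 to 0.03 in the fit with the lowered filter, and was -0.73 with a pseudocount of 0.1. Its sister gene Nkd1, below the filter and named after its values were seen, had 0.490, 0.353 and 0.368 FPKM in knockout libraries, against 0.799, 0.832 and 0.681 FPKM in WT libraries.

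Apcdd1 encodes a membrane glycoprotein that inhibits Wnt signalling at the cell surface (ENSMUSG00000071847, chr18:62922231-62961179). It had 1.31, 1.07 and 1.30 FPKM in knockout libraries, against 3.28, 2.27 and 2.47 FPKM in WT libraries. The 3 knockout libraries lay close together and below every WT library. The mean was 54.1% lower than in WT and the log2 change was -0.71 with an SE of 0.15 (limma adjusted p = 0.0433). The call was marginal. It was lost when any 1 of the 6 libraries was left out (adjusted p of 0.0621 to 0.165), with the filter lowered to 0.1 FPKM (0.0537) or removed (0.110), and with libraries scaled to the same total (0.12), while the log2 change kept its sign at -1.05 to -0.60 over all alternatives run. The exon length annotated here gave no whole reads for this gene, so its read number is not given.

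Ccnd1 encodes cyclin D1, which drives cells from G1 into DNA synthesis and is also induced by growth factors apart from Wnt. Ccnd1 (ENSMUSG00000070348, chr7:144929931-144939925) had 2.34, 2.39 and 2.68 FPKM in knockout libraries, against 5.68, 4.51 and 5.85 FPKM in WT libraries. These values rest on 183, 196 and 218 reads in knockout libraries and 551, 414 and 497 reads in WT libraries. The lowest WT library stood well above the highest knockout library. The mean was 53.8% lower, and the log2 change was -0.87 with an SE of 0.13 and a 95% interval of -1.17 to -0.56 (limma adjusted p = 0.0198). On recovered reads, limma's voom gave -1.10 with an SE of 0.17 (adjusted p = 0.0138). The call was lost without WT replicate 1 (adjusted p = 0.0881), WT replicate 3 (0.0524), knockout replicate 1 (0.0610) or knockout replicate 2 (0.0874), and was kept without WT replicate 2 (0.0252) or knockout replicate 3 (0.0438). It was also lost with libraries scaled to the same total (0.0755) or no filter (0.0618). Ccnd1 overlaps Lto1 on the opposite strand, which averaged 3.19 FPKM in knockout and 3.18 FPKM in WT bone. Reads from where these genes overlap cannot be assigned, as no source used here says if counting used strand.

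Myc encodes a transcription factor for growth and division. It was the gene of the 10 with the clearest difference in the other direction. Myc (ENSMUSG00000022346, chr15:61985391-61990374) had 33.5, 25.0 and 25.5 FPKM in knockout libraries, against 19.7, 21.6 and 20.4 FPKM in WT libraries, from 999 to 1508 reads. All 3 knockout libraries stood above all 3 WT libraries, with knockout replicate 1 far above the other 2. The ratio of means was 1.36 and the log2 change 0.42 with an SE of 0.14, which did not pass (limma adjusted p = 0.153, unadjusted p = 0.0216). Its groups, like those of Ccnd1 and Apcdd1, did not overlap, and 28.4% of all genes tested also had groups that did not overlap, 13.7% with the knockout lower and 14.7% with it higher.

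Markers of other cells moved beside these genes, and their counts stand against 3.82% lower and 1.34% higher among all genes tested. Beside Ccnd1 and Apcdd1, the summed level of 13 osteoblast markers was 808 to 1759 FPKM in knockout libraries and 2085 to 4025 FPKM in WT libraries, and 5 of 13 fell: Alpl and Smpd3, which serve matrix mineralization, Sp7, a transcription factor of osteoblast identity, Postn and Cdh11. Runx2 did not pass (log2 change -0.24, limma adjusted p = 0.448). The abundant Bglap, Col1a1 and Spp1, which make up much of this sum, also did not pass. Their log2 changes were large, at -1.62, -1.16 and -1.69. At an unadjusted p under 0.05, 12 of the 13 were lower, against 11.7% of all genes tested. The summed level was 7.76 to 46.9 FPKM in knockout and 288 to 421 FPKM in WT libraries for 11 chondrocyte markers, of which 8 of 9 tested fell (Col2a1, Acan, Comp, Matn3, Cnmd, Col9a1, Col9a2 and Col9a3). It was 68.2 to 145 FPKM in knockout and 495 to 761 FPKM in WT libraries for 7 adipocyte markers (5 of 6 fell: Adipoq, Plin1, Cfd, Cidec and Fabp4), and 34.1 to 51.4 FPKM in knockout and 133 to 192 FPKM in WT libraries for 8 tendon and fibroblast markers (6 of 7 fell: Tnmd, Fmod, Dpt, Scx, Dcn and Lum). Of osteocyte markers 3 of 6 tested fell, Dmp1, Phex and Pdpn (sums of 47.3 to 65.1 FPKM in knockout and 87.1 to 123 FPKM in WT libraries), of endothelial markers 2 of 7, Cdh5 and Kdr (53.8 to 58.4 FPKM in knockout and 78.9 to 83.6 FPKM in WT libraries), and of skeletal muscle markers 4 of 8, Myh2, Mylpf, Ckm and Casq1 (1760 to 2640 FPKM in knockout and 3518 to 6306 FPKM in WT libraries). The osteocyte list also holds Fgf23, below the filter and not tested, which went the other way: 1.56, 0.728 and 0.605 FPKM in knockout libraries, against 0, 0.169 and 0.214 FPKM in WT libraries. Beside Myc, 4 of 5 neutrophil precursor genes rose, Mpo, Prtn3, Ctsg and Ms4a3, and their summed level was 2529 to 3707 FPKM in knockout libraries and 984 to 1388 FPKM in WT libraries. The 6 erythroid markers summed to 1297 to 1577 FPKM in knockout and 1165 to 1734 FPKM in WT libraries and 0 passed in limma or voom or at an unadjusted p under 0.05, with the smallest p for Rhag, Ermap and Klf1. The part of any of these cell types in the levels of the 10 genes was not tested. Each list had 0 members listed at 0 in all libraries. Over all 11 lists 36 of 87 tested markers were lower and 4 higher, and with any 1 library left out 10 to 29 were lower and 0 to 3 higher. Some of the lower markers, such as Matn3, Plin1 and Tnmd, averaged under 1 FPKM in knockout bone and reached the filter only through WT libraries.

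**Figure D3:**
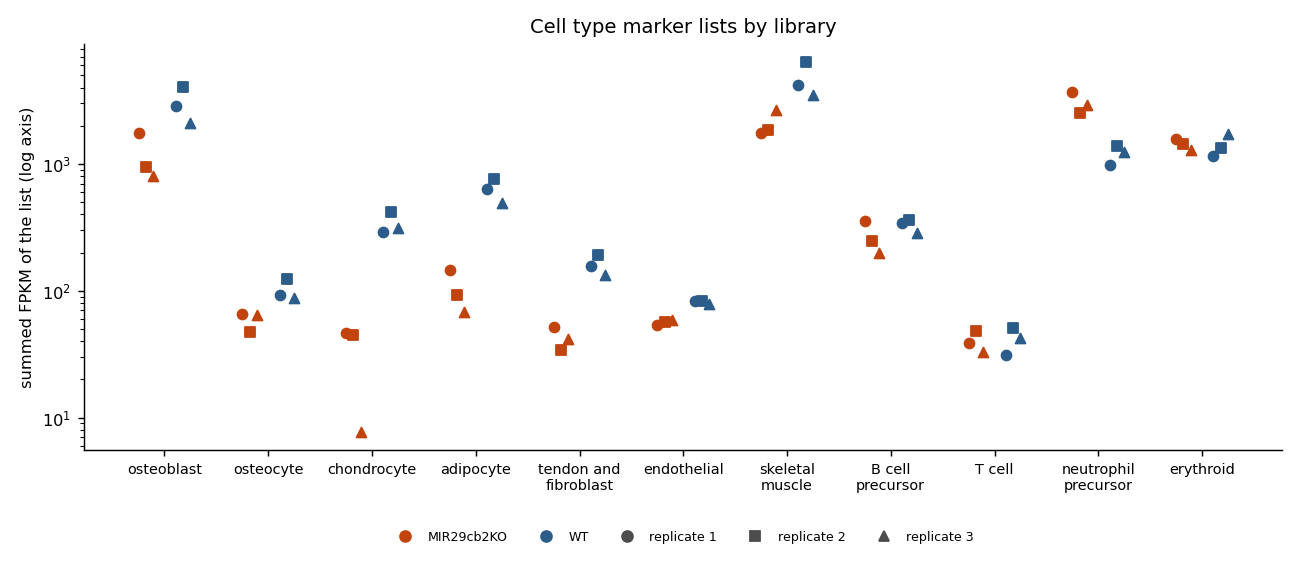
Summed FPKM of each cell type marker list (vertical axis, log scale) in the 3 knockout (MIR29cb2KO) and 3 WT libraries, 1 point per library. The chondrocyte, adipocyte, tendon and fibroblast, osteoblast, osteocyte, endothelial and skeletal muscle sums are lower in every knockout library, the neutrophil precursor sum is higher in every knockout library, and the B cell precursor, T cell and erythroid sums overlap.

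The rest of the pathway was read from 8 lists holding 114 other genes, of which 73 were tested, 9 were lower (12.3%) and 0 were higher in limma, against 3.82% lower and 1.34% higher among all genes tested. Of the 9, Fzd9, Tnfrsf11b, Frzb and Sfrp2 averaged under 1 FPKM in knockout bone and reached the filter only through WT libraries. The 12.3% thus rests in part on genes that entered the test because they were high in WT. At an unadjusted p under 0.05, 25 of the 73 were lower and 0 higher, against 11.7% and 8.91% of all genes tested. In voom 11 of 67 were lower and 0 higher, against 4.8% lower and 1.52% higher of 12950 genes. The median change of all genes tested was 0.06. Lists of ligands, secretion factors, receptors and the R-spondin module had 16 tested genes with a median log2 change of -0.59, 15 of them below 0. Some of the 16, among them Fzd9 and Rspo3, averaged under 1 FPKM in knockout bone and reached the filter only through WT libraries. Genes below the filter are not in this median, and some of them, such as Rspo1, had a higher mean in knockout bone. The destruction complex and nuclear partners had 38 tested genes with a median of 0.06, 15 of them below 0. None of those 38 passed in limma or, of 34, in voom, and 2 were lower at an unadjusted p under 0.05. The difference between both sets of lists was not tested.

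Among receptors Fzd9, a Frizzled known in mice for a role in bone formation, fell to 0.684, 0.676 and 1.31 FPKM in knockout libraries, against 2.84, 3.35 and 2.08 FPKM in WT libraries (log2 change -0.99, SE 0.20, limma adjusted p = 0.0385). It was 1 of 9 tested in a list whose genes were all below 0 (median -0.53). The summed level of that list was 23.7 to 25.8 FPKM in knockout and 36.4 to 46.0 FPKM in WT libraries. In the R-spondin module, whose secreted ligands strengthen the Wnt signal, the receptor Lgr4 fell (1.08 ± 0.0315 FPKM in knockout and 2.38 ± 0.433 FPKM in WT bone, limma adjusted p = 0.0417) as 1 of 3 tested, and Rspo3 had a log2 change of -0.80 (adjusted p = 0.0580), and passed in voom (-1.48, adjusted p = 0.0420). Of 19 ligands only Wnt4 (log2 change -0.84, adjusted p = 0.151) and Wnt5b (-0.71, adjusted p = 0.0625) reached the filter, and Wnt5b passed in voom (-1.19, adjusted p = 0.0490). The ligand carrier Wls, at 7.21 ± 0.211 FPKM in knockout and 6.84 ± 0.116 FPKM in WT bone, and the acyltransferase Porcn (log2 change -0.41) did not pass.

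Inside the cell, the scaffold Axin1 averaged 16.2 ± 0.249 FPKM in knockout and 14.4 ± 0.794 FPKM in WT bone (log2 change 0.16, limma adjusted p = 0.441), far above its Wnt-induced sister Axin2. The kinase Csnk1e had a log2 change of -0.28, the phosphatase subunit Ppp2ca one of 0.22, and the nuclear partners Cdc73 and Hdac1 ones of 0.25 and 0.23, none past the threshold. Of 12 further target genes tested 4 fell, in a list with a median of -0.73. They were the matricellular protein gene Ccn4 (log2 change -1.22, limma adjusted p = 0.0220), the receptor gene Tnfrsf19 (-0.93, 0.0214), the decoy receptor gene Tnfrsf11b (-1.22, 0.0457) and the antagonist gene Wif1 (-1.17, 0.0290). Tnfrsf11b encodes osteoprotegerin, which restrains osteoclast formation. Of the 12 target genes 10 had a log2 change below 0. Ccn5 (0.25) and Cd44 (0.18) lay above 0 and did not pass. Among 10 antagonists tested 4 fell, with Frzb, Sfrp2 and Dkk3 beside Wif1, which is in both lists, and a median of -1.05. Of all genes tested, 3.82% were lower. Tnfrsf11b, Frzb and Sfrp2 averaged 0.817, 0.234 and 0.252 FPKM in knockout bone and 3.40, 2.64 and 2.69 FPKM in WT bone. These genes thus reached the filter of a mean of 1 FPKM only through the WT libraries. Sost, the osteocyte inhibitor sclerostin, named outside the rule, had a log2 change of -0.18 (adjusted p = 0.713).

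The count of 9 lower pathway genes changed with the libraries used. It was 0 without WT replicate 1 or knockout replicate 2, 1 without knockout replicate 1, 2 without WT replicate 2 and 3 without knockout replicate 3, while 9 were lower without WT replicate 3. Without both libraries that stood apart it was 0. Leaving out 1 library also lowered the count over all genes, from 703 to between 62 and 418. The median then lay between -0.96 and -0.62 for the target list and between -1.20 and -0.79 for the antagonists. Over all 19 alternatives, some with a lower filter that let in more genes, the medians moved further. They ran from -0.96 to -0.46 for the target list and from -1.33 to -0.39 for the antagonists. For the ligands they ran from -1.20 to -0.11 and for the R-spondin module from -1.13 to -0.42.

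**Figure D4:**
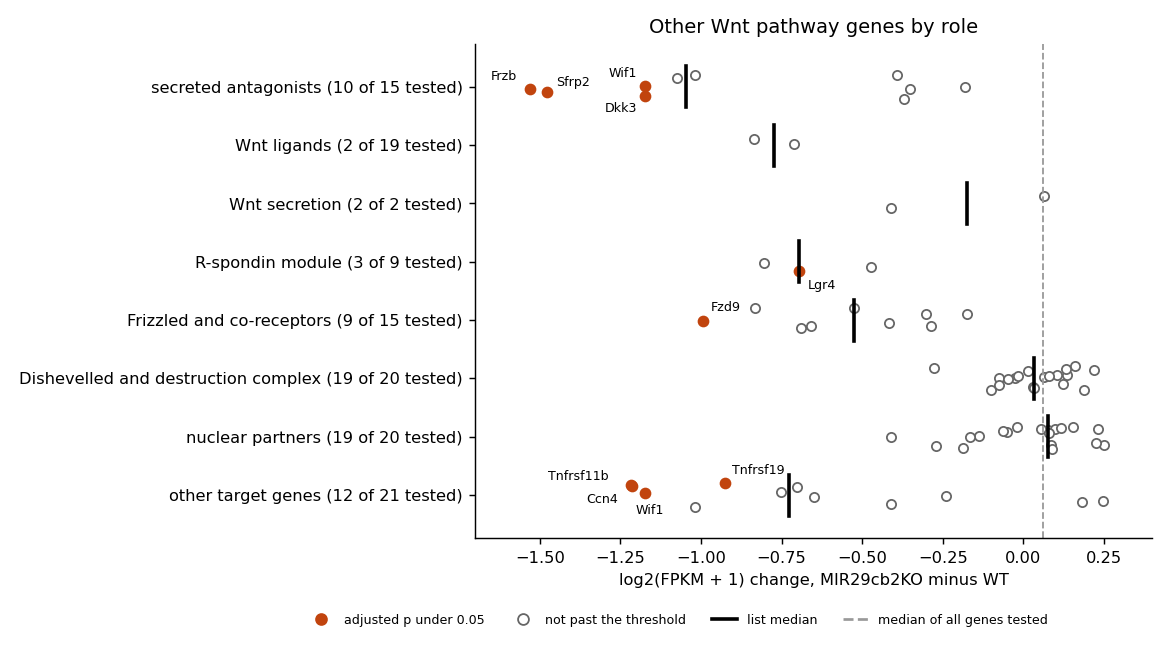
Change in log2(FPKM + 1), knockout minus WT (horizontal axis), of the tested genes of 8 Wnt pathway lists (rows), with list medians as bars, genes at a limma adjusted p under 0.05 filled, and the median of all genes tested dashed. Medians run from -1.05 for the secreted antagonists to 0.03 and 0.08 for the destruction complex and nuclear partners, where no gene is filled.

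The promoter table held 10 start sites of 5 of the genes (Axin2, Lef1, Tcf7, Nkd2 and Ctnnb1), each with 250 bases before and 50 after the start. The TCF/LEF motifs CTTTGAT and CTTTGAA, searched on both strands, occurred in 0 of the 10 windows, against 3.73% and 5.14% of 32851 windows of the same length. That says only that these letters are not in these windows.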

How the data were processed

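The authors deposited FPKM values of 54532 genes in the 6 libraries. Bowtie 0.12.2 and build mm10 are named in the submitters' processing notes. For the counting tool, annotation, use of strand and scaling, the entry is: not given in the sources used here. GENCODE M21 supplied symbols, positions and exon lengths for 54495 identifiers. Reads were recovered where FPKM times exon length moved in whole steps (tolerance 0.01 reads), for 96.9% of 29600 genes above 0. This failed for 47.3% of genes on chromosome 18, 46.9% on chromosome 19 and 17.5% on chromosome 17, against 0.104% elsewhere. Statements on reads cover counting error only.

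Values were analysed as log2(FPKM + 1), which understates changes of low genes, for 13619 genes whose mean over the 6 libraries reached 1 FPKM. Groups, taken from the sample titles, were compared with limma 3.58.1 in R 4.3.3 (variance trend on expression, two-sided, Benjamini-Hochberg over all genes, threshold 0.05). Genes below the filter were compared by a two-sided exact permutation test. The fit was run on simulated counts that had neither the length trend nor the unequal FPKM totals of these libraries, so that run does not cover them. Genes named are the 10 members and, of each list, those past the threshold or else the 3 smallest p. Exceptions, named after their values were seen, are Bglap, Ccn5, Cd44, Col1a1, Fgf23, Nkd1, Rspo1, Rspo2, Rspo3, Rspo4, Runx2, Sost, Spp1 and Tcf7l2. All 11 marker and 8 pathway lists, the members and the alternatives were chosen with earlier results of these data known. Of the list symbols, 1 was matched by a synonym and 1 was not found. No label used here states that replicate numbers pair the libraries. Figures used matplotlib 3.10.9.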

Additional observations from a re-analysis of the deposited data

How the results depend on the processing

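Directions of Ccnd1, Apcdd1, Myc and Ctnnb1 held under all 19 alternatives run (18 for Apcdd1, which has no recovered reads), and those of Axin2, Lef1 and Nkd2 under all 7. Causes of the shifts below were not tested. Ccnd1 fell short of the threshold with no filter (log2 change -0.87), equal totals (-0.89) and the replicate block (-0.87, adjusted p = 0.0760), and ranged from -0.96 to -0.81 with 1 library left out. Apcdd1 did so with the filter at 0.1 (-0.71), no filter (-0.71), equal totals (-0.75), the replicate block (-0.71, adjusted p = 0.126) and without both libraries that stood apart (-0.82), and ranged from -0.79 to -0.60 with 1 library left out. Myc passed with array weights (0.31) and with the length trend removed (0.40), and Tcf7 with array weights (0.60). With 1 library left out Tcf7 ranged from -0.017 (-0.012 without WT replicate 3) to 0.30, Lrp5 from -0.39 to 0.032 and Lrp6 from -0.22 to 0.015. The number of the 10 genes past the threshold, 2, became 1 with the filter at 0.1 or both libraries left out, 1 in voom, where Apcdd1 could not be tested, 0 with no filter, equal totals or the replicate block, 4 with array weights, and 0 to 1 with 1 library left out. Pathway genes lower, 9, became 1 with no filter, 22 with array weights, 1 with the replicate block, 0 without both libraries, and 0 to 9 with 1 left out. Marker genes lower, 36, became 13, 57, 19 and 17 in the same order, and 10 to 29 with 1 left out. Marker genes higher, 4, became 1 with no filter, 0 with the block and 0 to 3 with 1 left out. Genes past the threshold over the whole table, 703, became 143 with no filter, 3354 with array weights, 127 with the replicate block, 1216 with the length trend removed, 239 without both libraries and 62 to 418 with 1 left out. Libraries of the same number had a Pearson's r between their deviations across genes of -0.49, -0.27 and 0.16. These deviations also follow exon length, so the correlations cannot show whether libraries of the same number shared a batch. No label used here states that they did, and the block was not used as the main fit. Axin2, Lef1 and Nkd2 rest on 42 to 248 reads per library; the share of counting error in their spread was not tested.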

Other observations

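Rspo4, an R-spondin that strengthens Wnt signalling and is needed for nail growth in humans, was below the filter and was noticed after its values were seen. It had 0, 0.0484 and 0 FPKM in knockout libraries, against 0.840, 0.756 and 0.795 FPKM in WT libraries, from 2 reads over the knockout libraries and 110 over the WT libraries. Nearly all its reads were thus in WT libraries, at closely similar levels. The ratio, knockout over WT, was 0.0206 with a 95% counting interval of 0.00247 to 0.0763. This interval covers counting error only and not differences between animals. An exact permutation test over libraries (two-sided, n = 3) gave p = 0.1, the smallest possible, as it must for any gene whose groups do not overlap. Of all genes tested, 28.4% had such groups. Since Rspo4 was picked after its values were seen, neither the interval nor this p-value is evidence of a difference. Its family members Rspo2 and Rspo3 had ratios of 0.542 and 0.345 and did not pass in limma, while Rspo3 passed in voom (adjusted p = 0.0420) and Rspo2 did not (adjusted p = 0.16).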
